A study of Mus musculus with 6 samples.

Results

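The endothelial genes described here are 33 genes that mark the cells lining blood and lymphatic vessels, from receptors of vascular growth factors to junction proteins, transcription factors and lymphatic markers. They were taken by gene symbol from a table of 55357 genes, each symbol matched 1 row, and 32 of the 33 passed a filter of a mean of at least 1 TPM, an abundance unit that takes transcript length into account and adds up to one common total per library. The filter left 15023 genes in all, and Prox1 was the member below it.

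RNA came from 3 tumours of mice that received folinic acid (FA), a folate derivative, and from 3 tumours of mice given phosphate-buffered saline (PBS). All 6 tumours grew under the skin of C57BL/6J mice from 250000 injected cells of KPC1242, which is a single mouse line of pancreatic ductal adenocarcinoma. FA at 2 mg, or PBS, was given by daily gavage on days 8 to 12, with harvest on day 14. Age and sex of the mice are not stated in those labels, and a transplanted line under the skin is not the pancreas.

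Endothelial cells line every vessel. Vascular endothelial growth factors (VEGFs) act through the receptors Flt1, Kdr and Flt4, and angiopoietins act through Tek (Tie2) with its partner Tie1. Growing sprouts are led by tip cells, for which apelin (Apln), endocan (Esm1) and angiopoietin 2 (Angpt2) are known transcripts. Settled vessels are known for junction proteins, von Willebrand factor and nitric oxide synthase. Lymphatic vessels depend on the VEGF-C receptor Flt4 and the transcription factor Prox1, and commonly carry Lyve1.

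Endothelial RNA was present in every tumour at modest levels. The 5 defining markers Pecam1, Cdh5, Kdr, Tie1 and Egfl7 summed to 76.9, 96.9 and 277 TPM in FA replicates 1, 2 and 3, and to 126, 77.5 and 100.4 TPM in PBS replicates 1, 2 and 3. FA replicate 3 therefore stood above the 5 other tumours, whose groups overlapped. In RNA from whole tumours, more endothelial cells and more RNA per endothelial cell cannot be told apart. Lymphatic identity was poorly represented. Prox1 was listed at 0.01, 0.04 and 0.05 TPM across FA tumours, against 0.01, 0.02 and 0.02 TPM across PBS tumours, which is at the resolution of the 2-decimal table.

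FA replicate 3 stood apart over all genes as well. Its correlation with each other tumour across the 15023 genes, which are not independent replicates, lay between 0.949 and 0.968, against 0.981 to 0.987 among the other 5 tumours. It held the highest value for 29.4% of all genes tested and the lowest value for 37.4%. The unit carries no depth, so the read support of each value is unknown. The labels do not say that each tumour came from its own mouse, so p-values measure the spread between these 6 tumours. The sample descriptions carry one prefix for all FA tumours and another for all PBS tumours, and whatever it marks cannot be told apart from the treatment.

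**Figure D1:**
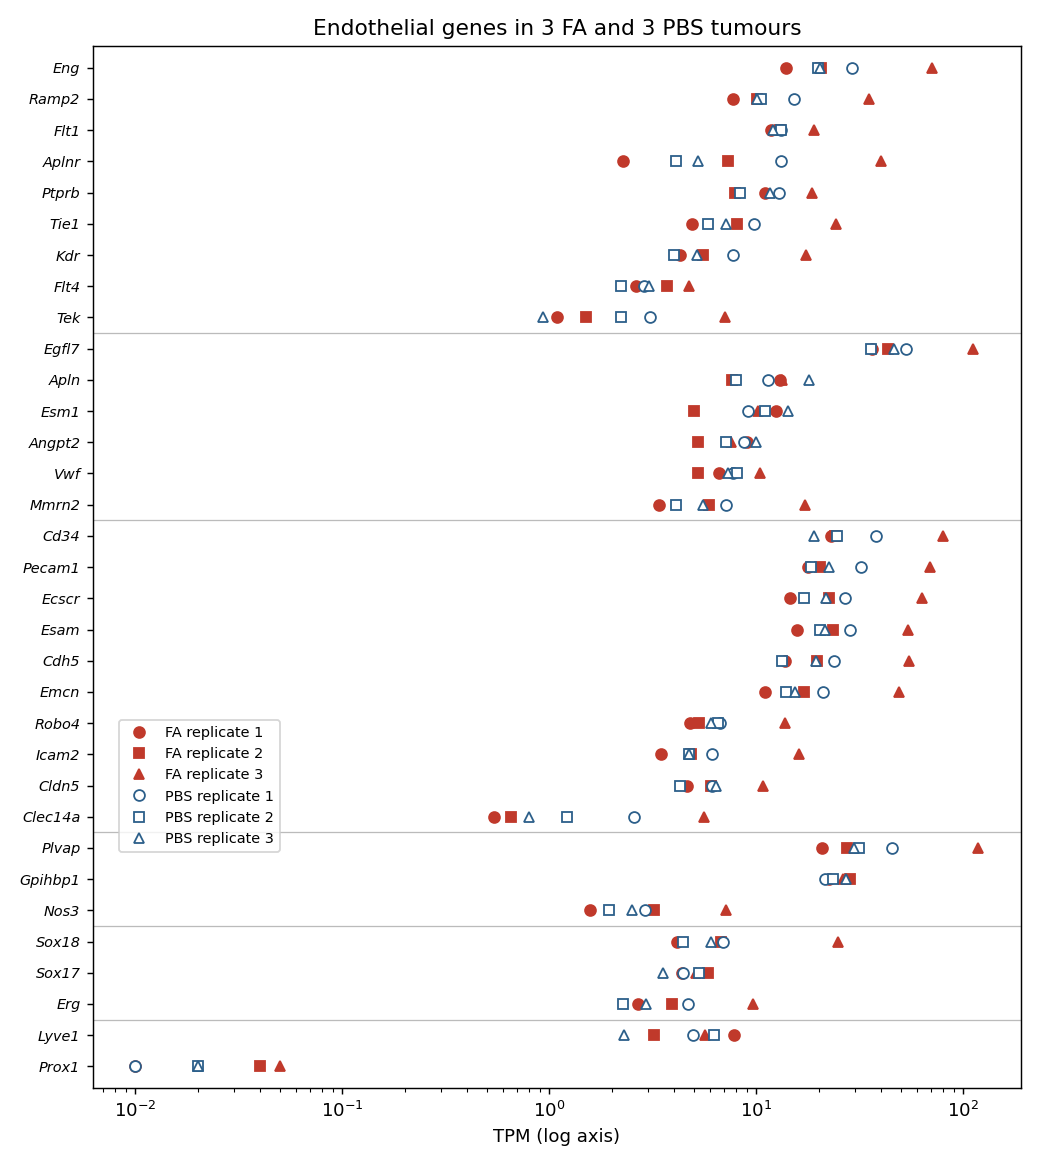
Level of each of the 33 endothelial genes in TPM (log axis) in the 3 FA tumours (filled symbols) and 3 PBS tumours (open symbols), grouped by role from receptors at the top to lymphatic genes at the bottom. FA replicate 3 (filled triangles) is the highest tumour for 26 of the 32 genes tested.

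The question set by the design was whether FA changed these genes. By limma on log2(TPM + 1), 0 of the 32 members were higher and 0 were lower in FA at a Benjamini-Hochberg adjusted p under 0.05, where the share called over all genes was 0.0% in each direction. No member reached an unadjusted p under 0.05 either, against 192 genes, or 1.28%, over the whole table. Complete separation of FA from PBS values was seen for 0 of the 32 members and for 4.69% of all genes tested. The mean log2 value was higher in FA tumours for 28 members and lower for 4, where 50.7% of all genes had a higher mean, and counts of higher and lower means of other lists are of log2 values too. The median log2 difference (FA minus PBS) was 0.26 over the members and 0.00164 over all genes, with standard errors of single members from 0.12 to 0.90.

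That direction rested on FA replicate 3. Without it, the mean was higher in FA for 5 members and lower for 27, where 55.5% of all genes had a higher mean, and the median log2 difference of the members was -0.23. The smallest p-values were then on the lower side, and 3 of the 32 members had an unadjusted p under 0.05, against 2.97% of the 14944 genes then tested. Vwf differed by -0.34 (unadjusted p = 0.0347, limma), Robo4 by -0.30 (unadjusted p = 0.0352, limma) and Plvap by -0.52 (unadjusted p = 0.0439, limma), and each had an adjusted p of 1.00. Without FA replicate 1, Flt4 alone among the members was under 0.05, with a log2 difference of 0.49 (unadjusted p = 0.0407, adjusted p = 0.830, limma), against 4.09% of all genes. Leaving out another tumour gave medians of 0.64 without FA replicate 1, 0.47 without FA replicate 2, 0.42 without PBS replicate 1, 0.17 without PBS replicate 2 and 0.20 without PBS replicate 3.

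**Figure D2:**
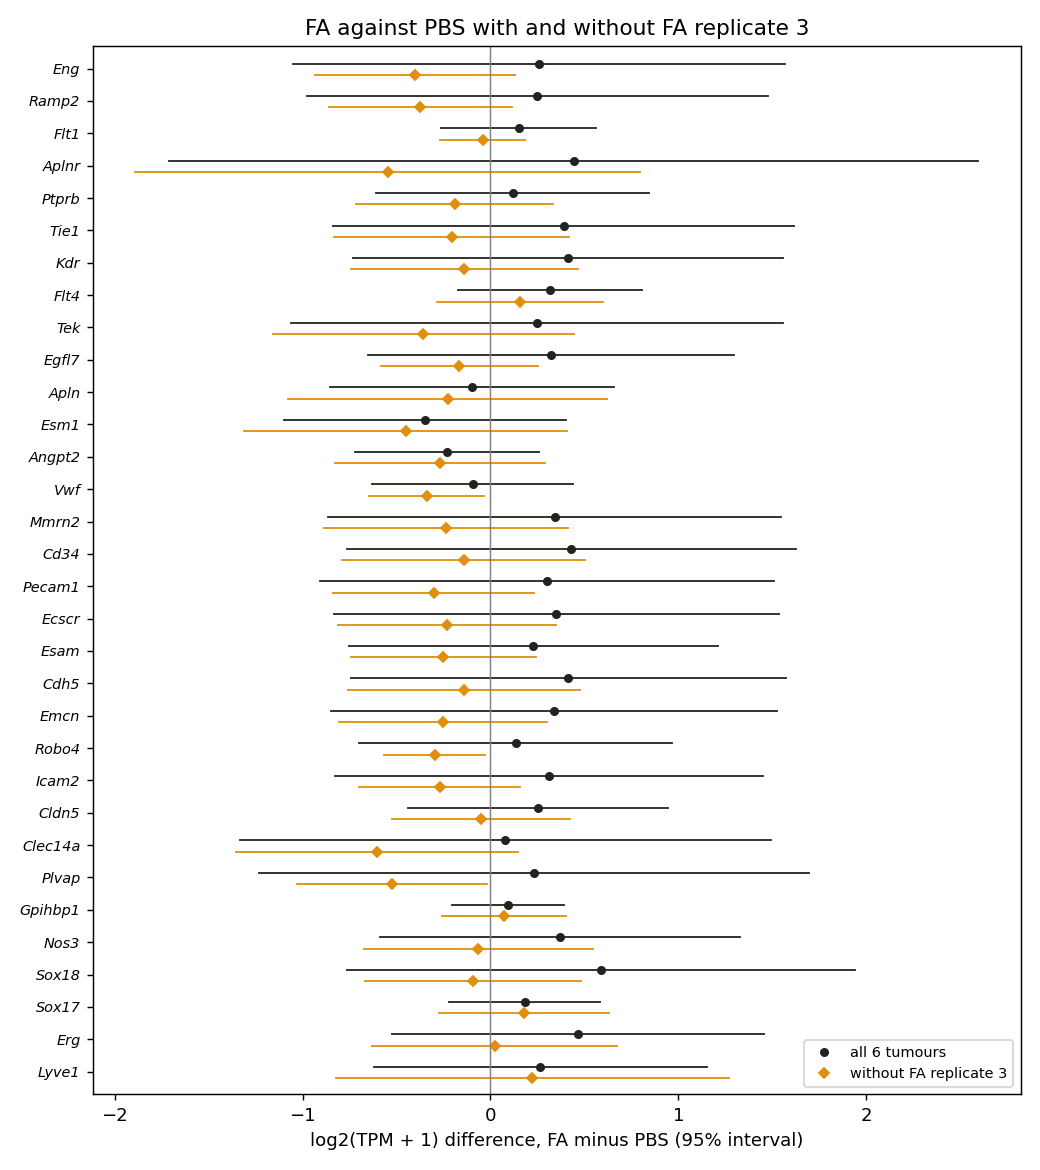
Difference in log2(TPM + 1), FA minus PBS, with its 95% interval from limma, for the 32 endothelial genes tested, with all 6 tumours (black circles) and without FA replicate 3 (orange diamonds). All intervals with 6 tumours cross 0, and leaving out FA replicate 3 moves the median from 0.26 to -0.23.

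The spread between tumours was wide for these genes. The coefficient of variation in FA tumours had a median of 73.6% over the 32 members and 13.5% over all genes tested. In PBS tumours it was 22.4% over the members and 8.42% over all genes. With FA replicates 1 and 2 alone it was 24.1% over the members and 6.10% over all genes. FA replicate 3 was the highest of the 6 tumours for 26 of 32 members, PBS replicate 1 was the second highest for 21 (26.0% of all genes) and FA replicate 1 was the lowest for 16 (12.8% of all genes). FA replicate 3 reached at least 2-fold the median of the other 5 tumours for 21 members, against 6.09% of all genes, and the median of that ratio was 2.86 over the members and 0.970 over all genes.

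Receptors of vascular growth factors had FA replicate 3 at the top. All 9 receptor and co-receptor genes were highest in FA replicate 3, and none passed the test. Kdr (ENSMUSG00000062960), the main signalling receptor of VEGF-A, was at 4.27, 5.51 and 17.4 TPM across FA tumours, against 7.69, 4.00 and 5.17 TPM across PBS tumours. FA replicate 3 was the only FA tumour above PBS replicate 1, and the groups overlapped, with a log2 difference of 0.41 ± 0.48 (SE). Tie1 was at 4.89, 8.11 and 24.3 TPM across FA tumours, against 9.77, 5.85 and 7.17 TPM across PBS tumours. Its partner Tek, the angiopoietin receptor, was scarcer, at 1.09, 1.51 and 7.06 TPM across FA tumours, against 3.06, 2.22 and 0.93 TPM across PBS tumours. Both followed the order of Kdr at the top, with FA replicate 3 and then PBS replicate 1.

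Flt1, which binds VEGF-A with high affinity and is known as a decoy for it, varied least among the receptors. It was at 11.8, 13.0 and 18.9 TPM across FA tumours, against 13.2, 13.2 and 12.1 TPM across PBS tumours, so FA replicate 3 reached 1.45 times the median of the other tumours. Flt4, the receptor of VEGF-C, was at 2.62, 3.70 and 4.75 TPM across FA tumours, against 2.88, 2.22 and 3.04 TPM across PBS tumours. It had the smallest p among the members, with a log2 difference of 0.32 ± 0.21 and an unadjusted p = 0.167 (limma), and one that was also positive without FA replicate 3, at 0.16.

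The apelin receptor Aplnr had the widest range of all members tested. It was at 2.28, 7.32 and 40.1 TPM across FA tumours, against 13.1, 4.08 and 5.21 TPM across PBS tumours, which is 17.6-fold between FA replicates 3 and 1. Both ends of its range were FA tumours, and its log2 difference was 0.44 ± 0.90. Endoglin (Eng), a co-receptor for ligands of the transforming growth factor beta family, was at 14.0, 20.5 and 70.3 TPM across FA tumours, against 29.1, 19.8 and 20.4 TPM across PBS tumours. Ramp2, which with Calcrl forms a receptor for adrenomedullin, was at 7.74, 10.0 and 34.9 TPM across FA tumours, against 15.2, 10.5 and 10.1 TPM across PBS tumours. Ptprb, a phosphatase that acts on Tek and on VE-cadherin, spread less, at 11.1, 7.85 and 18.6 TPM across FA tumours, against 12.9, 8.30 and 11.7 TPM across PBS tumours.

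The secreted factors split. Egfl7, a vessel-guiding protein made by endothelium, was at 36.1, 43.3 and 111 TPM across FA tumours, against 53.1, 35.9 and 46.4 TPM across PBS tumours. Mmrn2, a matrix glycoprotein that binds Clec14a, was at 3.37, 5.89 and 17.3 TPM across FA tumours, against 7.12, 4.11 and 5.53 TPM across PBS tumours. Both were highest in FA replicate 3. The 3 tip cell ligands were not.

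Apelin (Apln) was at 13.0, 7.60 and 13.3 TPM across FA tumours, against 11.4, 8.00 and 18.02 TPM across PBS tumours. Endocan (Esm1) was at 12.5, 5.01 and 10.1 TPM across FA tumours, against 9.16, 11.1 and 14.2 TPM across PBS tumours. Angpt2, which opposes or partly activates Tek depending on context, was at 8.99, 5.25 and 7.52 TPM across FA tumours, against 8.68, 7.12 and 9.96 TPM across PBS tumours. All 3 were lowest in FA replicate 2 and highest in PBS replicate 3, where 9.43% of all genes were lowest in FA replicate 2. Their log2 differences were -0.10 ± 0.32, -0.35 ± 0.31 and -0.23 ± 0.20, and none passed the test. Without FA replicate 2, the difference of Esm1 was -0.0068 and that of Angpt2 was -0.045. FA replicate 3 stood at 1.17, 0.918 and 0.866 times the median of the other tumours for Apln, Esm1 and Angpt2.

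Hypoxia target genes also had their lowest sum in FA replicate 2. The 10 hypoxia target genes listed, all tested, summed to 3028, 2013 and 2156 TPM across FA tumours, against 2809, 2594 and 2747 TPM across PBS tumours, and 6 of the 10 were lowest in FA replicate 2. All 10 had a lower mean log2 value in FA, with a median log2 difference of -0.30, and 0 passed the test. The next lowest hypoxia sum was in FA replicate 3. For the tip cell ligands the next lowest tumour was PBS replicate 2 for Apln and Angpt2 and PBS replicate 1 for Esm1. The part of the hypoxia target genes in the tip cell values was not tested. Von Willebrand factor (Vwf), the remaining secreted protein, was at 6.58, 5.21 and 10.4 TPM across FA tumours, against 7.68, 8.11 and 7.28 TPM across PBS tumours, with a log2 difference of -0.10 ± 0.22. It is also stored in platelets. The 8 platelet and megakaryocyte markers, of which 3 were tested and 2 of those were highest in FA replicate 3, summed to 49.2 to 131 TPM in FA tumours and 45.0 to 89.8 TPM in PBS tumours, none was at 0 in all tumours, and their part in Vwf was not tested.

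**Figure D3:**
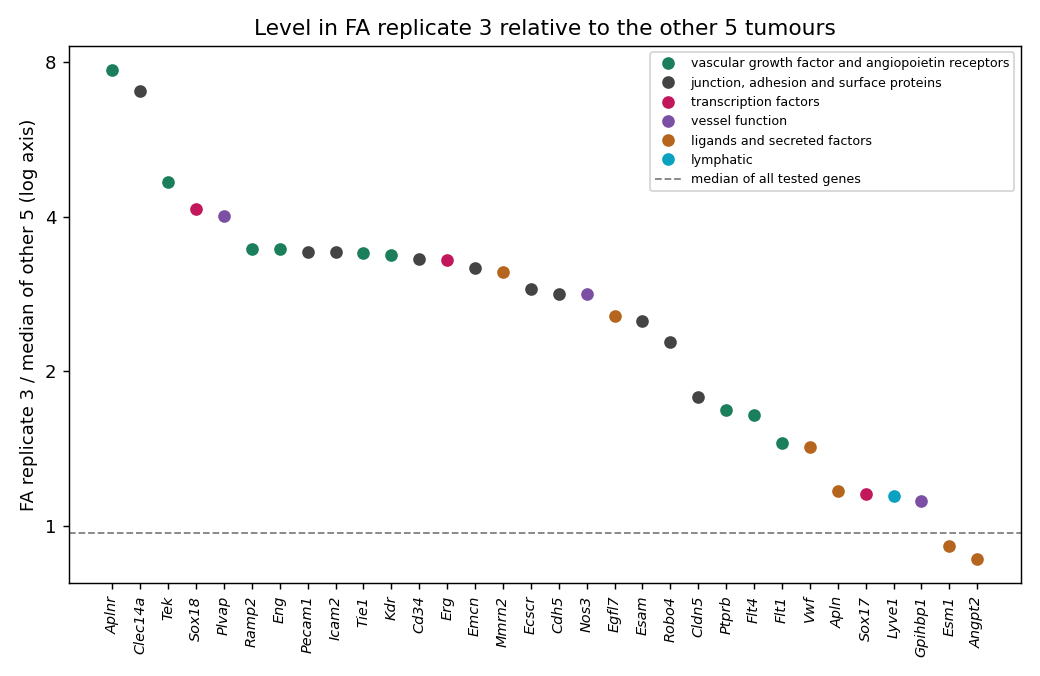
Level in FA replicate 3 divided by the median of the other 5 tumours (log axis) for the 32 endothelial genes tested, coloured by role, with the median of all 15023 genes tested (0.970) as a dashed line. Aplnr (7.69), Clec14a (7.01) and Tek (4.68) lead, and the tip cell ligands Apln, Esm1 and Angpt2 lie at 1.17 or below.

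Junction, adhesion and surface genes were all highest in FA replicate 3, 10 of 10, with a median log2 difference of 0.31 and 0 passing the test. Pecam1 (ENSMUSG00000020717), the adhesion molecule CD31, was at 17.8, 20.3 and 69.3 TPM across FA tumours, against 32.1, 18.5 and 22.4 TPM across PBS tumours. Cdh5, the VE-cadherin of endothelial adherens junctions, was at 13.8, 19.7 and 54.7 TPM across FA tumours, against 23.7, 13.3 and 19.3 TPM across PBS tumours. For both, FA replicate 3 and PBS replicate 1 were the highest tumours of their groups, and the remaining values overlapped.

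Emcn, an endothelial sialomucin, was at 11.1, 17.0 and 49.0 TPM across FA tumours, against 21.0, 14.0 and 15.4 TPM across PBS tumours. Ecscr, a surface protein of endothelial migration, was at 14.6, 22.6 and 63.1 TPM across FA tumours, against 26.8, 16.9 and 21.8 TPM across PBS tumours. Esam was at 15.8, 23.4 and 53.8 TPM across FA tumours, against 28.2, 20.3 and 21.5 TPM across PBS tumours. These 3 had FA replicate 1 as the lowest tumour. Icam2, an adhesion ligand for leukocyte integrins, had the same lowest tumour, at 3.45, 4.84 and 16.1 TPM across FA tumours, against 6.11, 4.71 and 4.73 TPM across PBS tumours.

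Cd34, which haematopoietic progenitors and some fibroblasts carry too, was at 23.0, 24.1 and 79.9 TPM across FA tumours, against 38.0, 24.6 and 18.9 TPM across PBS tumours. Claudin 5 (Cldn5), a tight junction protein, spread less, at 4.65, 6.06 and 10.8 TPM across FA tumours, against 6.14, 4.26 and 6.42 TPM across PBS tumours. Robo4, a receptor that steadies vessels, was at 4.76, 5.30 and 13.7 TPM across FA tumours, against 6.65, 6.54 and 6.02 TPM across PBS tumours. FA replicates 1 and 2 lay below all PBS tumours for Robo4, and FA replicate 3 lay above them. Clec14a, a lectin-family protein of tumour vessels, showed the same split at low levels, at 0.54, 0.65 and 5.61 TPM across FA tumours, against 2.56, 1.22 and 0.80 TPM across PBS tumours. Its FA mean exceeded its PBS mean through 1 tumour, and its log2 difference of 0.08 ± 0.59 became -0.07 with a pseudocount of 0.1.

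Genes of vessel function differed in their order of tumours. Plvap, which forms the diaphragms of fenestrae and caveolae, was at 20.7, 27.4 and 118 TPM across FA tumours, against 45.1, 31.3 and 29.5 TPM across PBS tumours. Only Egfl7 had a higher mean among the members. Here too FA replicates 1 and 2 lay below all PBS tumours. Nos3, the endothelial nitric oxide synthase, was at 1.57, 3.20 and 7.12 TPM across FA tumours, against 2.91, 1.95 and 2.52 TPM across PBS tumours. Gpihbp1, which carries lipoprotein lipase to the capillary lumen, was nearly level, at 22.5, 28.2 and 26.4 TPM across FA tumours, against 21.5, 23.5 and 27.1 TPM across PBS tumours. Its highest value was 1.32 times its lowest, the narrowest range of the members, and the 95% interval of its log2 difference ran from -0.20 to 0.39.

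Among the transcription factors, Erg and Sox18 were highest in FA replicate 3 and Sox17 was not. Erg, an ETS factor that maintains endothelial identity, was at 2.67, 3.91 and 9.65 TPM across FA tumours, against 4.68, 2.27 and 2.93 TPM across PBS tumours. Its log2 difference of 0.46 ± 0.41 was 0.023 without FA replicate 3. Sox18, a factor of vascular and lymphatic development, was at 4.13, 6.73 and 24.9 TPM across FA tumours, against 6.94, 4.44 and 6.02 TPM across PBS tumours. It had the largest log2 difference of the members, 0.59 ± 0.57, and without FA replicate 3 that difference was -0.09. Sox17, its relative in arterial endothelium, was at 4.38, 5.84 and 5.12 TPM across FA tumours, against 4.42, 5.28 and 3.54 TPM across PBS tumours, with a log2 difference of 0.18 ± 0.17.

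Promoters of 4 members are shown as examples, with 2 members from each side of the FA replicate 3 pattern. Tie1 and Emcn were over 3 times as high in FA replicate 3 as the median of the other tumours, and Apln and Esm1 were not. Each window runs from 250 bases before to 50 bases after the RefSeq gene start on GRCm38.p6, 5′ to 3′ on the gene's strand. Capitals mark AGGAAG or its reverse complement CTTCCT, a longer form of the GGAA core of ETS factor motifs, which is not marked by itself.
Tie1, chr4:118489800-118490099, minus strand: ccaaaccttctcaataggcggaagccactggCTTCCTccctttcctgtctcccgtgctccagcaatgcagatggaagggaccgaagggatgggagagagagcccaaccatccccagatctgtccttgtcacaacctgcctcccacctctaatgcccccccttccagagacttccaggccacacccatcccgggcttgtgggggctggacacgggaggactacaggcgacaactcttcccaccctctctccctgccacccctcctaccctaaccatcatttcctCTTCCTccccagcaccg
Emcn, chr3:137340828-137341127, plus strand: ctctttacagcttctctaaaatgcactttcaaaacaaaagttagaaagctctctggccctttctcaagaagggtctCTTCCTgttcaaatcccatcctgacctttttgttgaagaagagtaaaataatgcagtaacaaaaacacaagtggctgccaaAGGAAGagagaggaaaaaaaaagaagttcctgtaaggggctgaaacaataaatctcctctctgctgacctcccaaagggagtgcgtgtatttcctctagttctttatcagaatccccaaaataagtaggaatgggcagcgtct
Apln, chrX:48034804-48035103, minus strand: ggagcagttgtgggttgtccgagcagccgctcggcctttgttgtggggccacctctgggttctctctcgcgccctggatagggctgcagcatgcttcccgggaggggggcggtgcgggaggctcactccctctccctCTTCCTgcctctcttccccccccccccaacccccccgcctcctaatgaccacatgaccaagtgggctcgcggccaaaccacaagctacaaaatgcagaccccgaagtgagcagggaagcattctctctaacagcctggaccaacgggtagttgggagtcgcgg
Esm1, chr13:113209409-113209708, plus strand: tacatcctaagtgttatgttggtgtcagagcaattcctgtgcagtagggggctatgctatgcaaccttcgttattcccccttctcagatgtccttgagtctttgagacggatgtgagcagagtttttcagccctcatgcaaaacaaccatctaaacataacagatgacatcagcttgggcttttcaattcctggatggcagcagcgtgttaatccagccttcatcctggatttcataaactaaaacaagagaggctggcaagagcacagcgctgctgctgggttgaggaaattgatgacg

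Windows were found for 16 of the 33 members. Of these, 9 (56.2%) held AGGAAG on either strand, against 38.4% of the 27025 genes with a window, a gene counting once where any of its windows matched. AGGAAG did not sort the members by their FA replicate 3 ratio: Kdr (3.37), Tek (4.68) and Clec14a (7.01) held none of it, and Flt1 (1.45) held 2. The shorter GGAA core, on either strand, was still present in these windows, 5 times for Kdr, 2 for Tek, 7 for Clec14a and 4 for Flt1. The SOX core AACAAT was in 3 members (18.8%) and 12.2% of genes, the GATA core AGATAA in 2 members (12.5%) and 12.7% of genes, the hypoxia response core ACGTG in 1 member (6.2%) and 21.8% of genes, and TATAAA in 3 members (18.8%) and 15.7% of genes. All were searched on both strands, none contains another apart from GGAA within AGGAAG, and a match is a description of letters and not of binding.

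Among the lymphatic genes, Lyve1 did not have FA replicate 3 at the top. Lyve1, a hyaluronan receptor of lymphatic vessels that some macrophages also carry, was at 7.77, 3.21 and 5.64 TPM across FA tumours, against 4.93, 6.23 and 2.30 TPM across PBS tumours. FA replicate 1, the lowest tumour for 16 members, was its highest, and its log2 difference was 0.26 ± 0.37. Beside it, the macrophage scavenger receptor Cd163 was at 5.93, 3.86 and 9.73 TPM across FA tumours, against 4.12, 5.52 and 2.70 TPM across PBS tumours. Lyve1 and Cd163 shared PBS replicate 3 as the lowest tumour. The 10 macrophage markers, of which 9 were tested and all 9 were highest in FA replicate 3, summed to 466 to 875 TPM in FA tumours and 435 to 555 TPM in PBS tumours, none was at 0 in all tumours, and their part in Lyve1 was not tested.

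Of 13 further lymphatic genes, 8 were tested and 0 passed in either direction, with 6 higher and 2 lower means and a median log2 difference of 0.20. FA replicate 3 was the highest tumour for 6 of these 8, with a median of 2.19 times the other tumours. Reln, Ccl21a, Foxc2, Mmrn1 and Sema3d had means under 1 TPM and were not tested. Those tested included the abundant Thy1 and Piezo2, with means of 158 and 52.5 TPM. Gata2, Nr2f2 and Mmrn1 are also in the list of other endothelial genes described below. The podoplanin gene Pdpn, which fibroblasts also express, was at 11.7, 9.28 and 33.2 TPM across FA tumours, against 14.97, 9.92 and 12.1 TPM across PBS tumours. Of the 4 genes set as defining lymphatic markers, Prox1 was the only one with a mean under 1 TPM, and Flt4, Lyve1 and Pdpn are also known in other cells. The lymphatic label therefore rests on genes that are not specific to lymphatic vessels.

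Set against the 5 defining markers within each tumour, some vessel genes had an even share and others did not. Emcn stood at 14.4%, 17.5% and 17.7% of the 5-marker sum in FA tumours and at 16.6%, 17.99% and 15.4% in PBS tumours. Ecscr was as even, with 1.23-fold between its highest and lowest share, and Icam2 had 1.35-fold. Over the 27 members outside the 5 markers, the median log2 difference of this share (FA minus PBS, with no pseudocount) was -0.10, with 8 members higher and 19 lower. This rescaling was chosen after seeing the data, and it describes no test.

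The uneven genes lay on both sides in FA replicate 3. The 5-marker sum was itself highest there, at 277 TPM, so a gene with near-level TPM has its lowest share in that tumour. Aplnr made up 2.96%, 7.56% and 14.5% of the sum across FA tumours, against 10.4%, 5.26% and 5.19% across PBS tumours. In share, Apln ran the other way, at 16.9%, 7.85% and 4.80% across FA tumours, against 8.99%, 10.3% and 17.9% across PBS tumours. In TPM, FA replicate 3 was the second highest tumour for Apln. Apln was nearly level between FA replicates 1 and 3, at 13.0 and 13.3 TPM, so its lower share in FA replicate 3 follows from the larger divisor. Aplnr differed between these tumours in TPM too, at 2.28 and 40.1 TPM. Esm1 was at 16.2%, 5.17% and 3.66% across FA tumours, against 7.26%, 14.3% and 14.2% across PBS tumours. Angpt2 was at 11.7%, 5.42% and 2.72% across FA tumours, against 6.88%, 9.18% and 9.92% across PBS tumours. Gpihbp1, at 29.2%, 29.2% and 9.52% across FA tumours, against 17.0%, 30.3% and 27.0% across PBS tumours, was lowest in FA replicate 3 as well.

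**Figure D4:**
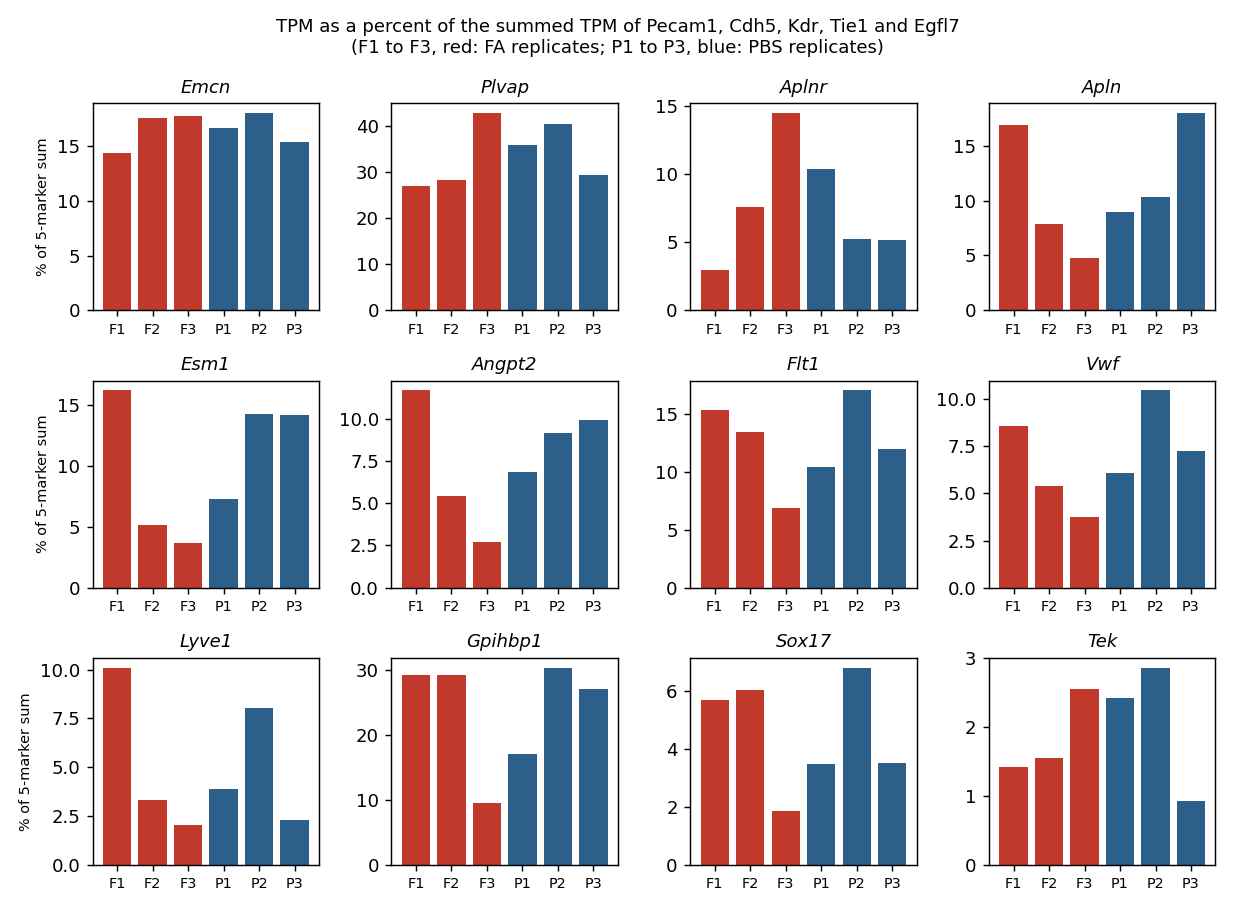
TPM of 12 endothelial genes as a percent of the summed TPM of Pecam1, Cdh5, Kdr, Tie1 and Egfl7, one bar per tumour, with FA tumours in red (F1 to F3) and PBS tumours in blue (P1 to P3). Emcn is even, Aplnr is highest in FA replicate 3 (14.5%), and Apln, Esm1, Angpt2, Flt1, Vwf, Lyve1, Gpihbp1 and Sox17 are lowest there. The 5-marker sum used as divisor was highest in FA replicate 3 (277 TPM).

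By stage of vessel growth, the medians of the classes as listed were close. The 10 genes listed for tip cells and sprouting had a median log2 difference of 0.18, with 7 higher and 3 lower means. The 3 lower were the tip cell ligands Apln, Esm1 and Angpt2, and the 7 higher were Kdr, Flt4, Aplnr, Cd34, Robo4, Clec14a and Plvap. Those 7 include genes described above by other roles, such as Robo4, Plvap and Cd34. The median of that list is therefore not one of tip cell transcripts alone. The 11 genes listed for mature vessels had a median of 0.25, with 10 higher and 1 lower, and the 10 pan-endothelial genes had 0.31, with 10 higher. None of these genes passed the test, and the classes were not tested against each other.

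Ligands and partners of these receptors showed no difference past the threshold. Of 29 VEGF, angiopoietin, apelin, semaphorin and Slit pathway genes, 27 were tested, 0 passed in either direction, and 12 had a higher and 15 a lower mean, with a median log2 difference of -0.01. Vegfa, the main ligand of Kdr and Flt1, was at 197, 123 and 129 TPM across FA tumours, against 183, 181 and 186 TPM across PBS tumours. FA replicate 1 was above all PBS tumours and the other 2 FA tumours below them, with a log2 difference of -0.33 ± 0.17. Vegfc and Vegfd, the ligands of Flt4, were at 4.14, 4.83 and 7.87 TPM and at 3.46, 3.27 and 7.57 TPM in FA tumours, against 5.70, 5.73 and 5.80 TPM and 5.88, 4.17 and 2.22 TPM in PBS tumours.

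Placental growth factor (Pgf), a ligand of Flt1, was at 14.3, 9.65 and 41.8 TPM across FA tumours, against 24.3, 11.1 and 22.4 TPM across PBS tumours. The co-receptor Nrp1, which tumour cells and macrophages can express, was level at 25.9, 29.9 and 24.0 TPM across FA tumours, against 30.8, 25.5 and 25.5 TPM across PBS tumours. Calcrl, the partner of Ramp2, was at 3.74, 4.15 and 7.80 TPM across FA tumours, against 5.22, 3.50 and 2.48 TPM across PBS tumours, a log2 difference of 0.38 ± 0.31 that was 0.10 without FA replicate 3. Angpt1, the ligand that activates Tek, was near the filter, at 0.92, 1.19 and 2.19 TPM across FA tumours, against 1.38, 1.07 and 0.85 TPM across PBS tumours. Ephb4, a receptor of venous endothelium that epithelia also use, was the only gene of the list named here whose groups did not overlap, at 56.4, 56.9 and 40.5 TPM across FA tumours, against 57.0, 58.0 and 57.2 TPM across PBS tumours. Its log2 difference was -0.18 ± 0.14, or -0.019 without FA replicate 3, and 2 of its FA values lay within 1 TPM of the PBS values. Groups did not overlap for 4.69% of all genes tested.

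Of 12 Notch genes used in vessels, 11 were tested and 0 passed, with 8 higher and 3 lower means and a median log2 difference of 0.18. Dll4, the tip cell Notch ligand, was at 9.07, 11.6 and 12.9 TPM across FA tumours, against 9.56, 9.91 and 9.54 TPM across PBS tumours, a difference of 0.18 ± 0.14 that was 0.076 without FA replicate 3. The ligand Jag1 did not overlap between groups, at 42.6, 45.4 and 58.1 TPM across FA tumours, against 42.3, 42.0 and 41.1 TPM across PBS tumours, with a difference of 0.20 ± 0.12 that was 0.073 without FA replicate 3. Its lowest FA value, 42.6 TPM, lay close to its highest PBS value, 42.3 TPM, and 4.69% of all genes tested had groups that did not overlap. Notch1 had the smallest p of the list, at 21.3, 21.2 and 17.6 TPM across FA tumours, against 17.1, 17.8 and 16.0 TPM across PBS tumours, with a difference of 0.22 ± 0.10 (unadjusted p = 0.0742, limma). Epithelial tumour cells also use Jag1 and Notch1.

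Most other endothelial genes outside the 33 were also highest in FA replicate 3. Of 51 listed, 50 matched and 45 were tested, 0 passed in either direction, and 37 had a higher and 8 a lower mean, with a median log2 difference of 0.19. FA replicate 3 was the highest tumour for 36 of the 45, with a median of 2.42 times the other tumours. The ETS factor Fli1 was at 2.59, 3.19 and 6.82 TPM across FA tumours, against 3.31, 2.29 and 2.82 TPM across PBS tumours, a difference of 0.37 ± 0.30 that was 0.036 without FA replicate 3. Their summed level was 2225 ± 180.3 TPM with FA and 2176 ± 61.3 TPM with PBS (SD, n = 3 each; exact two-sided permutation p = 0.9, where 3 against 3 cannot go below 0.1). Tm4sf1 made up 49.2% to 54.3% of that sum, at 1066, 1063 and 1202 TPM across FA tumours, against 1153, 1050 and 1194 TPM across PBS tumours. The next most abundant were Cdc42ep1, Aqp1, Hhex and Palmd, with means of 137, 110, 106 and 104 TPM, each lowest in FA replicate 3. A sum led by such genes does not measure endothelial content.

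Markers of several other cell types were also highest in FA replicate 3. The 13 pericyte and smooth muscle markers, all tested and all highest in FA replicate 3, summed to 260, 288 and 618 TPM across FA tumours, against 305, 175 and 273 TPM across PBS tumours. Tagln and Acta2 led that sum, with means of 94.6 and 91.5 TPM. Des, also listed, was lowest in FA replicate 1 and PBS replicate 2, at 1.73 and 2.40 TPM, as was the skeletal muscle sum given below. Rgs5, a pericyte gene, was at 16.6, 16.3 and 74.2 TPM across FA tumours, against 43.0, 25.3 and 14.6 TPM across PBS tumours. The 12 fibroblast markers, of which 11 were highest there, summed to 2609, 3155 and 7624 TPM across FA tumours, against 4399, 2535 and 3299.5 TPM across PBS tumours. The 4 pan-leukocyte markers, all highest in FA replicate 3, summed to 108, 131 and 235 TPM across FA tumours, against 140.0, 117 and 115 TPM across PBS tumours. None of these markers was at 0 in all tumours.

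Skeletal muscle markers differed far more. The 12 listed, of which 11 were tested and all 11 were highest in FA replicate 3, summed to 12.8, 155 and 1316 TPM across FA tumours, against 193, 14.9 and 140 TPM across PBS tumours. Ckm and Myh4 were listed at 0 in FA replicate 1 and in PBS replicate 2, the 2 tumours with the lowest 5-marker endothelial sums. The 10 adipocyte markers, 6 of them tested and 4 of those highest in FA replicate 3, summed to 36.9, 94.0 and 229.8 TPM across FA tumours, against 84.6, 88.1 and 49.8 TPM across PBS tumours. In contrast the 7 tumour epithelial markers, 4 of them highest in FA replicate 3, summed to 5002, 5259 and 5619 TPM across FA tumours, against 4605, 5306 and 4698 TPM across PBS tumours. The 5 erythroid markers summed to 259, 190.1 and 341 TPM across FA tumours, against 81.8, 115 and 635 TPM across PBS tumours. The part of these other cell types in the endothelial values was not tested.

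**Figure D5:**
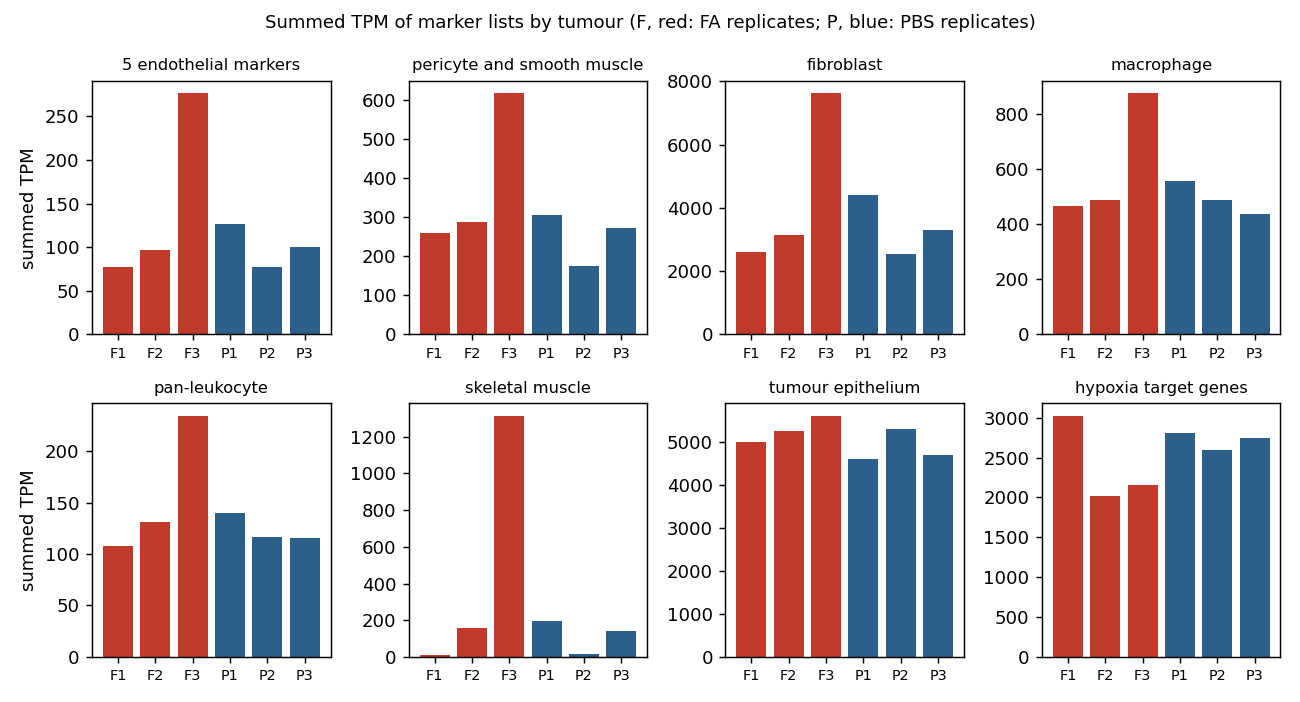
Summed TPM of the 5 endothelial markers, of 6 marker lists of other cell types and of hypoxia target genes, one bar per tumour, with FA tumours in red (F1 to F3) and PBS tumours in blue (P1 to P3); each panel has its own axis from 0. FA replicate 3 is the highest bar in every panel except hypoxia targets, where FA replicate 2 is the lowest at 2013 TPM, and skeletal muscle is near 0 in FA replicate 1 and PBS replicate 2.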

How the data were processed

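The authors deposited 1 table of TPM for the 6 tumours, scaled to one common total per column. Tools listed, per the submitters' processing notes, are RSEM, STAR, FastQC and featureCounts, with neither version nor role, and the genome build is not given in the sources used here. Per the labels' protocols, 4 µg of total RNA with an integrity number above 8 went into stranded libraries amplified by 12 PCR cycles. TPM keeps no depth, so no counting interval or floor is given. Columns were matched to tumours by the sample descriptions.

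A linear model of FA against PBS was fitted to log2(TPM + 1) of 15023 genes, those averaging 1 TPM or more over all tumours (limma 3.58.1, R 4.3.3, variance trend, two-sided, Benjamini-Hochberg over all genes, threshold 0.05). The pseudocount understates differences of low genes. The members and lists were chosen with earlier results of these data known. All 33 members could be named; from other lists, up to 4 genes by smallest p and a fixed set of partners and markers were. Tm4sf1, Cdc42ep1, Aqp1, Hhex, Palmd, Ckm and Myh4 were named after their values were seen. So were Reln, Ccl21a, Foxc2, Mmrn1, Sema3d, Thy1, Nr2f2 and Des. The model was also checked by simulation, with 200 changed genes drawn from all 15023. It recovered 40.3% of 1.5-fold, 62.7% of 2-fold and 89.4% of 4-fold changes. The simulation drew noise separately for each gene, with equal spread in all tumours. It held neither a tumour that stood apart nor a shift shared by many genes. The rates therefore do not apply to the members, for which recovery was not tested. The members varied more between tumours than most genes, so 0 members called does not show that none changed. Alternatives covered the pseudocount, filter, scaling, array weights, variance trend, a replicate block, a threshold of 0.1 and leaving out each tumour. Promoter windows are RefSeq sequences of GRCm38.p6.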

Additional observations from a re-analysis of the deposited data

How the results depend on the processing

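The call of 0 members held in all 16 alternatives. Over all genes the count of higher genes was 2 without a filter on low values, and the count of lower genes ran from 0 to 1 when 1 tumour was left out, the 1 being without FA replicate 3. The replicate numbers did not pair the tumours: deviations of same-numbered tumours correlated at -0.21, 0.05 and -0.02, and with the replicate number as a block 0 members and 0 genes were called, with the members' median at 0.26. Of 506 values of single members under alternatives, 456 kept their direction and 50 reversed, 23 of these without FA replicate 3 and 19 with array weights, whose iterations stopped before reaching tolerance and which gave FA replicate 3 a weight of 0.217 against 1.03 to 2.23 for the others. Flt4, Sox17, Erg, Gpihbp1, Esm1 and Angpt2 did not change sign in the alternatives run for them, but most came near 0 when 1 tumour was left out: 0.16 to 0.49 for Flt4, 0.061 to 0.29 for Sox17, 0.023 to 0.79 for Erg, 0.018 to 0.18 for Gpihbp1, -0.59 to -0.0068 for Esm1 and -0.38 to -0.045 for Angpt2. The values nearest 0 were without FA replicate 3 for Flt4 and Erg, PBS replicate 3 for Sox17, PBS replicate 1 for Gpihbp1, and FA replicate 2 for Esm1 and Angpt2.

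With array weights the log2 differences turned to -0.16 for Pecam1, -0.030 for Cdh5, -0.0078 for Kdr, -0.087 for Tek, -0.047 for Tie1, -0.066 for Egfl7, -0.084 for Emcn, -0.20 for Eng, -0.11 for Esam, -0.013 for Cldn5, -0.29 for Plvap, -0.16 for Robo4, -0.18 for Ramp2, -0.10 for Mmrn2, -0.37 for Clec14a, -0.25 for Aplnr, -0.17 for Ptprb, -0.10 for Icam2 and -0.089 for Ecscr. Clec14a was also at -0.068 with a pseudocount of 0.1.

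Leaving out 1 tumour gave ranges of log2 differences whose lowest value was without FA replicate 3 and highest without FA replicate 1: -0.30 to 0.65 for Pecam1, -0.14 to 0.81 for Cdh5, -0.14 to 0.76 for Kdr, -0.042 to 0.28 for Flt1, -0.36 to 0.62 for Tek, -0.21 to 0.85 for Tie1, -0.17 to 0.63 for Egfl7, -0.25 to 0.77 for Emcn, -0.40 to 0.72 for Eng, -0.25 to 0.60 for Esam, -0.049 to 0.48 for Cldn5, -0.52 to 0.70 for Plvap, -0.30 to 0.38 for Robo4, -0.093 to 1.07 for Sox18, -0.37 to 0.64 for Ramp2, -0.14 to 0.73 for Cd34, -0.24 to 0.79 for Mmrn2, -0.60 to 0.45 for Clec14a, -0.55 to 1.27 for Aplnr, -0.065 to 0.76 for Nos3, -0.27 to 0.70 for Icam2 and -0.23 to 0.79 for Ecscr. For Vwf (-0.34 to 0.10) and Ptprb (-0.19 to 0.38) the lowest was without FA replicate 3 and the highest without FA replicate 2. Apln ran from -0.36 without PBS replicate 2 to 0.18 without PBS replicate 3, and Lyve1 from -0.065 without PBS replicate 3 to 0.55 without FA replicate 2. The summed level of the other endothelial list, which does not measure endothelial content, differed by 48.6 TPM. It ran from -53.4 without FA replicate 3 to 117.8 without FA replicate 1. Without Tm4sf1 the difference was 70.5 TPM (exact permutation p = 0.4), an alternative chosen after seeing the data. The cause was not tested. Limits set by sequencing depth could not be assessed from TPM.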
